A study of Mus musculus with 16 samples.

Results

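The genes described here are Clca4b, Clca4a and Clca1, 3 members of the chloride channel accessory (Clca) family, followed in the colonic epithelium of mice that did or did not receive secretory IgA (SIgA) and did or did not drink dextran sulfate sodium (DSS). They were taken by name from the deposited array table, through probe sets annotated to a single gene, and make up 3 of 19938 genes measured. They were selected on their DSS differences in these arrays, Clca4b having the largest of all genes, so those differences are given as a description and were not tested. The effects of passive and active SIgA in untreated mice, after DSS and averaged over both were tested. The interactions of SIgA with DSS are differences between the values the choice used and are given without a test for these 3 genes.

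Gene expression was measured on 16 arrays of colonic epithelial cells from C57BL/6 mice aged 70 days, each array carrying RNA pooled from 3 mice. Passive SIgA reaches the pups in milk and was given by Pigr+/- dams but not by Pigr-/- dams. Active SIgA is exported by the offspring's own polymeric immunoglobulin receptor, Pigr, in Pigr+/- and not in Pigr-/- offspring. The 4 combinations, called here both sources, milk SIgA alone, own SIgA alone and no SIgA, were each left untreated or given 2% DSS in the drinking water for 8 days, which gave 8 groups of 2 arrays, or 6 mice a group. No group held Pigr+/+ mice, the pools were gender-matched, and passive SIgA was set by the dam, so that dam and milk cannot be told apart. All values are log2 intensities, on which a difference of 1 is a doubling. Precision is limited by the 2 arrays in a group.

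Clca proteins are secreted or shed glycoproteins with a metalloprotease domain that cut themselves during maturation. They were first taken for calcium-activated chloride channels and are now known to modify such channels rather than to form them. CLCA1 is a product of goblet cells, a component of the intestinal mucus that processes the mucin network, and it stabilises the calcium-activated chloride channel TMEM16A (Ano1) at the cell surface. In the mouse the family is a cluster of neighbouring genes, and Clca4a and Clca4b are close relatives that both correspond to human CLCA4.

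Pigr stood at 12.18 to 12.46 in the 8 arrays labelled Pigr+/- and at 11.34 to 11.70 in the 8 labelled Pigr-/-, a difference of -0.85 ± 0.05 (SE, limma adjusted p = 9.77e-06), so that each array matched its label. All 14 epithelial markers, among them Epcam, Cdh1, Krt8 and Vil1, lay above the median gene level of 7.0 before and after DSS, and the lowest of them stood at percentile 88.2 of all genes. On the first principal component, with 34.1% of the variance, both untreated arrays with both sources (-35.2 and -33.5) and untreated replicate 1 under own SIgA alone (-32.2) stood apart from the other 13, which ran from -5.5 to 27.4. The untreated group with both sources is called below the untreated group that stood apart, and values without it are given beside many of the statements.

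Clca4b gave the widest difference of the 3. In untreated mice its signal was 7.68 and 7.52 with both sources, 8.14 and 7.78 under milk SIgA alone, 7.85 and 8.47 under own SIgA alone, and 7.85 and 8.53 when there was no SIgA. After DSS it was 11.17 and 11.92, 11.83 and 11.92, 11.68 and 11.94, and 11.73 and 11.07 in that order. Every DSS array lay above every untreated array, with 2.55 log2 between the highest untreated and the lowest DSS array. Such a separation upwards held for 1.58% of all genes. The averaged difference was 3.68 ± 0.15 (SE, 8 arrays against 8), a factor of 12.8, and 3.59 ± 0.18 without the untreated group that stood apart. The next genes in order of the averaged DSS difference were Ccl3 at 3.12 ± 0.14, Srgn at 2.99 ± 0.12 and Acod1 at 2.96 ± 0.18. In a bulk sample a change in the number of cells that make a transcript and a change in the amount per cell cannot be told apart.

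Mice without SIgA had the highest mean Clca4b signal before DSS and the lowest after it. The group means before DSS ran from 7.60 ± 0.12 (SD, n = 2 arrays) with both sources to 8.19 ± 0.48 without SIgA, and after DSS from 11.40 ± 0.47 without SIgA to 11.88 ± 0.07 under milk SIgA alone. The margins were small. Own SIgA alone stood at 8.16 ± 0.44 before DSS and both sources at 11.55 ± 0.53 after it. Their arrays overlapped with those without SIgA. The order of the DSS differences was 3.95 ± 0.30 (SE) with both sources, 3.91 ± 0.30 under milk SIgA alone, 3.65 ± 0.30 under own SIgA alone and 3.22 ± 0.30 without SIgA, or 15.4, 15.1, 12.5 and 9.29 as folds. Neighbours in this order were closer than the sum of their standard errors. All 4 groups separated upwards, as did 28.4%, 24.3%, 15.2% and 19.3% of all genes in them.

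**Figure D1:**
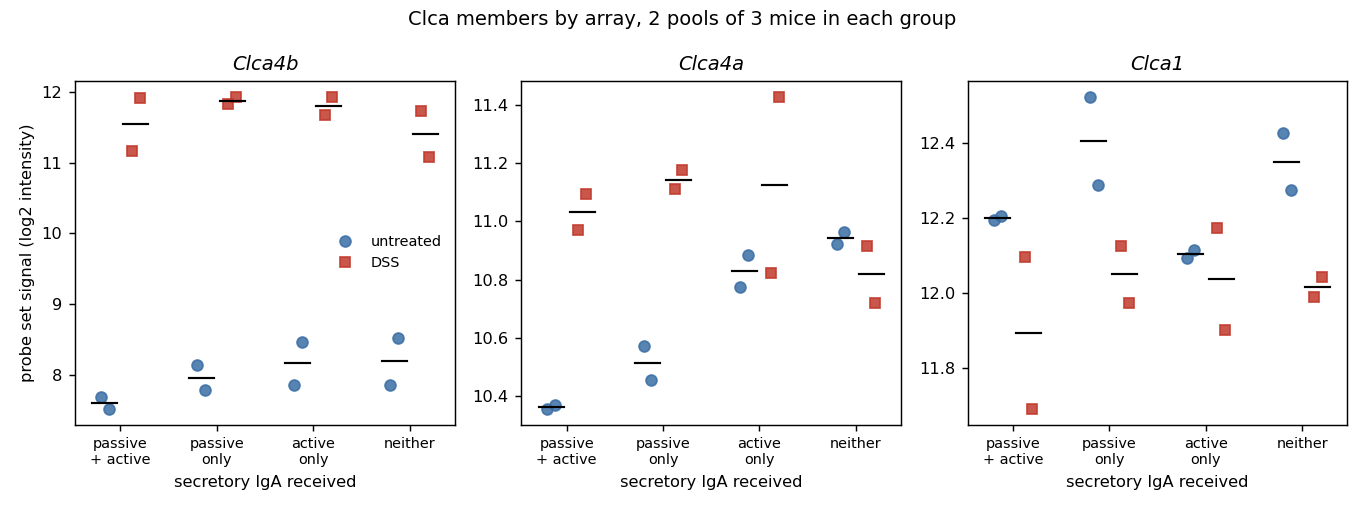
Signal of Clca4b, Clca4a and Clca1 (log2 intensity, a scale of its own in each panel) in each of the 16 arrays, by SIgA received (passive is milk SIgA, active is own SIgA), with untreated arrays as circles, DSS arrays as squares and group means as bars. Clca4b separates completely with DSS, and Clca1 lies between 11.69 and 12.52 throughout. Untreated Clca4a steps up where passive SIgA was absent, a difference that did not pass after adjustment over all genes.

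The RefSeq promoter table (GRCm38.p6) held 5 of the 7 Clca genes, Clca4b among them. The 250 bases before its annotated start are shown because Clca4b carries the widest difference; capitals mark a TATATATA repeat close to the start.
Clca4b, chr3:144932530-144932779, minus strand: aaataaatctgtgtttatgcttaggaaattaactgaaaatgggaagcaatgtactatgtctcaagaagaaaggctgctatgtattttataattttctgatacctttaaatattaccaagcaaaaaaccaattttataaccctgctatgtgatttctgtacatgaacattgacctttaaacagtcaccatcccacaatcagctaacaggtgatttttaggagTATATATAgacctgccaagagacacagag
The letters TATATA, searched on both strands, began 29 and 27 bases before the start, in overlap. They were found in 5.25% of 32851 promoters of this length, that of Clca3a1 among them. TATAAA was matched 2 times, 166 and 119 bases before the start, each time on the strand opposite to the one printed. On either strand it occurs in 12.4% of promoters. The window held no match to the NF-kB consensus, to the AP-1 letters TGANTCA or to the STAT letters TTCNNNGAA, found in 3.9%, 6.75% and 7.02% of promoters.

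Clca4a, the nearest relative of Clca4b, had a far smaller DSS difference, and its untreated signal was ordered by passive SIgA. In untreated mice it stood at 10.35 and 10.37 with both sources, at 10.57 and 10.46 under milk SIgA alone, at 10.78 and 10.88 under own SIgA alone, and at 10.92 and 10.96 without SIgA. DSS arrays stood at 10.97 and 11.10, 11.11 and 11.18, 10.82 and 11.43, and 10.91 and 10.72 in that order. Before DSS, all 4 arrays without passive SIgA thus lay above all 4 with it. Such a separation in this direction held for 4.09% of all genes, and the limma difference did not pass (adjusted p = 0.0544). After DSS that separation was gone, and both arrays without SIgA were among the 3 lowest of the 8 DSS arrays. The averaged DSS difference was 0.37 ± 0.08, a factor of 1.29, and 0.27 ± 0.10 without the untreated group that stood apart. By SIgA group it was 0.67 ± 0.16 with both sources, 0.63 ± 0.16 under milk SIgA alone, 0.30 ± 0.16 under own SIgA alone and -0.13 ± 0.16 without SIgA. The arrays of the first and second of these separated upwards and those of the last downwards, where 28.4%, 24.3% and 21.5% of all genes did so.

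Clca1, the goblet cell member, was among the brightest genes, at percentile 99.1 of the mean levels, and moved little. In untreated mice it stood at 12.19 and 12.21 with both sources, at 12.52 and 12.29 under milk SIgA alone, at 12.09 and 12.12 under own SIgA alone, and at 12.43 and 12.28 without SIgA. DSS arrays stood at 12.10 and 11.69, 12.13 and 11.98, 12.17 and 11.90, and 11.99 and 12.04 in that order. Treated and untreated arrays overlapped over all groups. Within groups they overlapped under own SIgA alone, and in the other 3 both DSS arrays were the lower ones, as for 21.9%, 18.7% and 21.5% of all genes with both sources, milk SIgA alone and no SIgA. The averaged DSS difference was -0.27 ± 0.07, a factor of 1.2 lower with DSS, and -0.25 ± 0.09 without the untreated group that stood apart. It was -0.31 ± 0.15, -0.35 ± 0.15, -0.07 ± 0.15 and -0.33 ± 0.15 in the 4 SIgA groups in the order above, and without 1 array, DSS replicate 2 or 1 with both sources, the average ran from -0.21 to -0.32.

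A further probe set was annotated to Clca4b and Clca4a together and was left out of the gene counts. Its signal ran from 9.16 to 9.60 in untreated and from 9.28 to 10.09 in DSS arrays, which overlapped, with an averaged DSS difference of 0.44 ± 0.09. By SIgA group its DSS difference was 0.58, 0.60, 0.53 and 0.06 ± 0.18, lowest without SIgA, where Clca4a and Clca4b were lowest as well. Its difference was thus close in size to that of Clca4a and far below that of Clca4b. How far the single-gene probe sets of such close relatives catch each other's transcripts was not tested.

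Among the DSS arrays Clca4b and Clca4a had nearly the same rank order, though only rho and not r passed after adjustment. The permutations below exchange arrays across the 4 SIgA groups. Their p-values thus mix differences between groups with the spread between pools, and the choice of the genes used those group values. Over the 8 DSS arrays (4 groups of 2) Pearson's r was 0.70 (exact permutation p = 0.0574, adjusted 0.172 over 6 relations) and Spearman's rho 0.90 (exact p = 0.00456, adjusted 0.0274). Over the 8 untreated arrays r was 0.74 (exact permutation p = 0.0457, adjusted 0.172) and rho 0.81 (exact p = 0.0218, adjusted 0.0654). Without the 2 arrays farthest from the median of Clca4b r was 0.87 after DSS and 0.48 before it. After DSS r between Clca1 and Clca4b was -0.44 and between Clca1 and Clca4a -0.45 (exact permutation p = 0.264 and 0.266, adjusted 0.399 for both), with rho at -0.64 and -0.50 (exact adjusted p = 0.192 and 0.324). Without the 2 farthest arrays these r were -0.70 and -0.46. In untreated arrays the 2 r values with Clca1 were 0.05 and 0.01 (exact permutation p = 0.905 and 0.971, adjusted 0.971 for both), with rho at 0.02 and 0.12 (exact adjusted p = 0.977 and 0.952), and 0.67 and -0.28 without the 2 farthest arrays.

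The first tested question was whether early passive SIgA bears on these genes. In untreated mice Clca4a was higher without passive SIgA by 0.45 ± 0.11 (SE, 4 arrays against 4, 95% interval 0.21 to 0.69), a factor of 1.37, in both offspring genotypes (0.47 in Pigr+/- and 0.43 in Pigr-/- offspring). With limma and Benjamini-Hochberg adjustment over all genes it stood at adjusted p = 0.0544 and did not pass the threshold of 0.05, where 2.58% of all genes did; arrays that did not overlap in this direction were found for 4.09% of genes. It passed with a trend in the prior variance (adjusted p = 0.0291), but not with median centring (0.37, adjusted p = 0.104) or array weights (adjusted p = 0.097). With single arrays left out the difference ran from 0.42 to 0.48. Without the untreated group that stood apart it was 0.43 ± 0.17 (adjusted p = 0.616), since only Pigr-/- offspring then remain, and no gene passed there. Clca4b was higher by 0.40 ± 0.21 (95% interval -0.06 to 0.85, adjusted p = 0.311), and by 0.23 without that group. Clca1 differed by -0.08 ± 0.10 (-0.30 to 0.15, adjusted p = 0.709).

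After DSS passive SIgA left no difference past the threshold in any of the 19938 genes by limma, with 788 at an unadjusted p under 0.05. Clca4b stood at -0.10 ± 0.21 (95% interval -0.56 to 0.35), Clca4a at -0.12 ± 0.11 (-0.36 to 0.13) and Clca1 at 0.05 ± 0.10 (-0.17 to 0.28). The interaction, the effect after DSS minus that in untreated mice, was -0.57 ± 0.16 for Clca4a (95% interval -0.91 to -0.22), -0.50 ± 0.30 for Clca4b (-1.14 to 0.14) and 0.13 ± 0.15 for Clca1 (-0.18 to 0.44), untested here because the choice used it; 0.115% of all genes passed in it. Averaged over both states, where 0.963% of genes passed, passive SIgA gave 0.17 ± 0.08 for Clca4a (adjusted p = 0.342), 0.15 ± 0.15 for Clca4b (adjusted p = 0.663) and -0.01 ± 0.07 for Clca1 (adjusted p = 0.958). Without the untreated group that stood apart these averages were 0.07, 0.01 and 0.02, and 3 genes passed. The interactions were then -0.76, -0.70 and 0.02 in the same order, from Pigr-/- offspring alone.

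**Figure D2:**
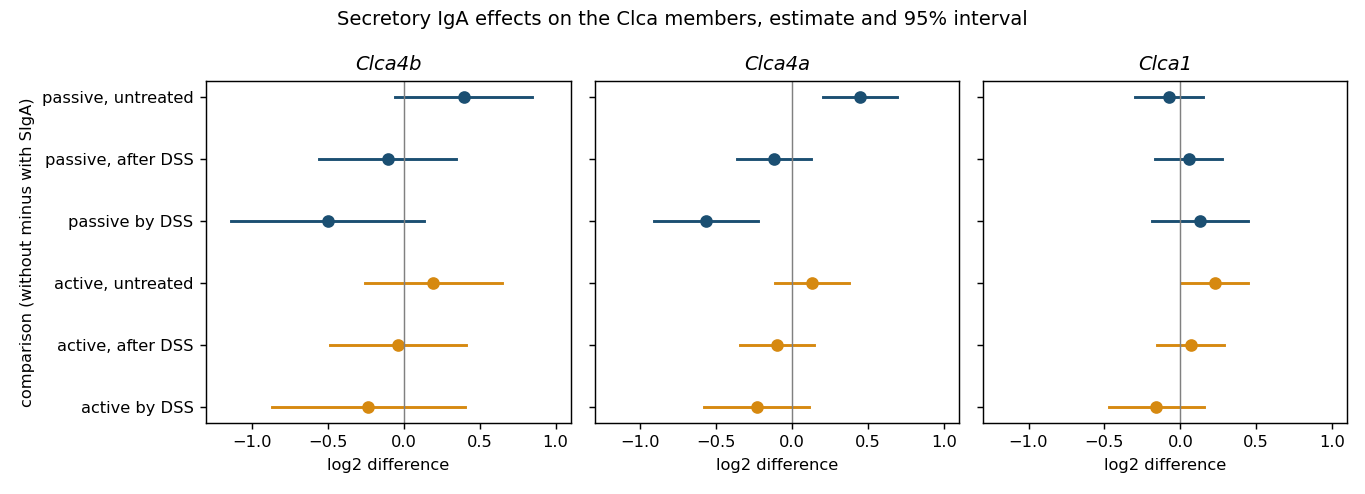
Effect of lacking passive (blue) or active (orange) SIgA on the 3 genes, as log2 difference without minus with SIgA in untreated mice, after DSS, and as the difference between both (by DSS), with 95% intervals from limma as lines. The interval of untreated Clca4a for passive SIgA, 0.21 to 0.69, lies above 0, although it did not pass after adjustment over all genes; the by-DSS values are a description, since the choice of the genes used them.

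The second tested question was whether the offspring's own SIgA transport bears on them. In untreated mice Clca1 was higher in Pigr-/- than in Pigr+/- offspring by 0.23 ± 0.10 (95% interval 0.00 to 0.45, unadjusted p = 0.0463, adjusted p = 0.173), with 0.21 under Pigr+/- dams and 0.25 under Pigr-/- dams. An unadjusted p under 0.05 was found for 5580 of 19938 genes in this comparison. All 4 arrays without active SIgA lay above all 4 with it, which held in this direction for 4.11% of genes. The goblet markers measured with it had a median difference of 0.16 in this comparison, against -0.01 for all genes, and 1 of 18 passed, Bcas1 at 0.70 ± 0.15 (adjusted p = 0.0129), with 7.49% of all genes past the threshold. Clca4b stood at 0.20 ± 0.21 (-0.26 to 0.65, adjusted p = 0.538) and Clca4a at 0.13 ± 0.11 (-0.11 to 0.38, adjusted p = 0.435). Without the untreated group that stood apart Clca1 was 0.25 higher (adjusted p = 0.481), and no gene passed there.

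After DSS the active SIgA differences were -0.04 ± 0.21 for Clca4b, -0.10 ± 0.11 for Clca4a and 0.07 ± 0.10 for Clca1, with 0.00502% of genes (1 gene) past the threshold. Their interactions with DSS were -0.23 ± 0.30, -0.23 ± 0.16 and -0.16 ± 0.15, again untested, where 0.843% of all genes passed. Averaged over both states the differences were 0.08 ± 0.15, 0.02 ± 0.08 and 0.15 ± 0.07 (adjusted p = 0.777, 0.918 and 0.302), where 1.37% passed. Of the 18 tests on the 3 genes none passed with limma after adjustment, and 2 had an unadjusted p under 0.05. These were Clca4a for passive SIgA and Clca1 for active SIgA in untreated mice, where 3959 and 5580 of 19938 genes had such a p. The 6 differences after DSS and 3 of the averages (passive SIgA on Clca1, active SIgA on Clca4a and Clca4b) lay close enough to 0 to change sign when single arrays were left out.

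Other Clca genes rose with DSS as well. Of the 4 other Clca genes measured, 3 rose with DSS by limma and none fell, where 6.40% of all genes rose and 6.73% fell (13.1% in all); the list's median difference was 0.63, against -0.0044 for all genes. Clca3a2 ran from 7.78 to 9.15 in untreated and from 9.11 to 9.85 in DSS arrays and rose by 0.97 ± 0.13 (adjusted p = 0.000365), a factor of 1.95. Clca3a1 ran from 6.82 to 7.93 and from 7.83 to 8.62 and rose by 0.76 ± 0.13 (adjusted p = 0.00185). Clca3b, already bright at 11.99 to 12.65, reached 12.57 to 12.95 and rose by 0.51 ± 0.08 (adjusted p = 0.00134). In all 3 the highest untreated arrays overlapped the lowest DSS arrays. Clca2 lay at percentile 12.7 of all genes, at 4.75 to 5.37 untreated and 4.74 to 5.16 with DSS, and did not pass (-0.12 ± 0.07, adjusted p = 0.357). Without the untreated group that stood apart the 3 rises were 0.97, 0.73 and 0.50 and passed.

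Those 3 relatives each had their lowest DSS difference under milk SIgA alone. The DSS difference of Clca3a2 was 1.5 ± 0.27 under own SIgA alone, 1.1 ± 0.27 without SIgA, 0.96 ± 0.27 with both sources and 0.30 ± 0.27 under milk SIgA alone. Clca3a1 gave 1.15, 0.66, 0.85 and 0.36 ± 0.26 in these groups, and Clca3b 0.80, 0.45, 0.54 and 0.25 ± 0.17. Without untreated replicate 1 under own SIgA alone, which stood apart, the value there was 1.13 for Clca3a2, 0.82 for Clca3a1 and 0.78 for Clca3b, so that it is the highest for Clca3a2 by little and for Clca3a1 no longer. Clca4b and Clca4a, by contrast, had nearly their highest difference under milk SIgA alone. The interaction of passive SIgA with DSS was 0.67 ± 0.27 for Clca3a2 (unadjusted p = 0.0264, adjusted p = 0.532), 0.30 ± 0.26 for Clca3a1 and 0.23 ± 0.17 for Clca3b, and none passed. None of the 4 relatives passed in any of the 8 SIgA comparisons by limma. At an unadjusted p under 0.05 there were 3 for active SIgA in untreated mice, where 5580 of 19938 genes had such a p. For the passive interaction there was 1, where 1622 of all genes had such a p. How far the probe sets of Clca3a1, Clca3a2 and Clca3b measure these relatives apart was not tested.

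**Figure D3:**
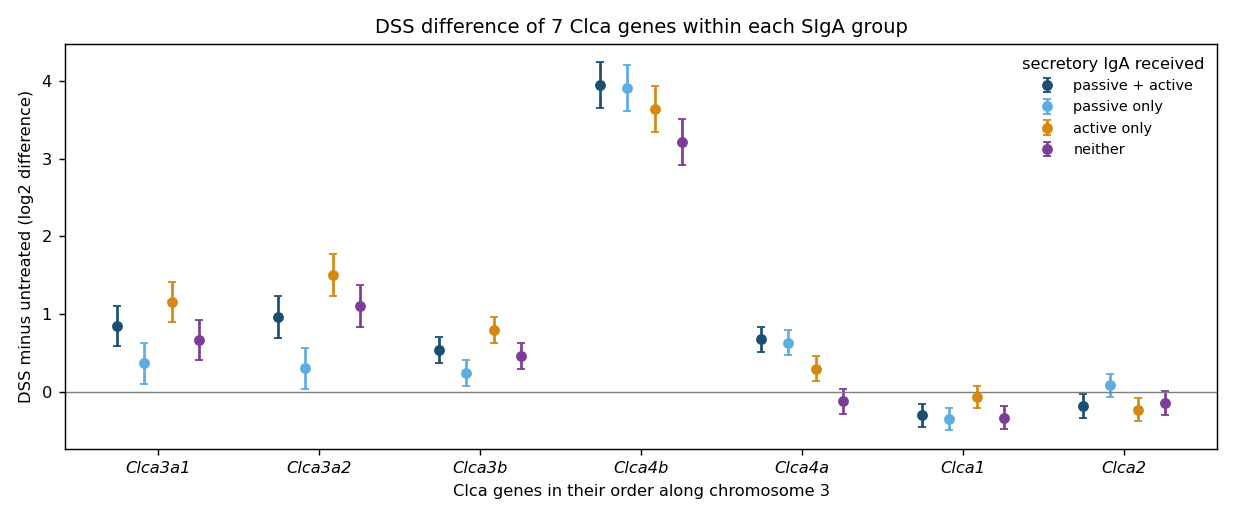
DSS minus untreated difference (log2) of the 7 Clca genes, placed in their order along chromosome 3, in each SIgA group (colours), as fitted values with standard errors. Clca4b stands at 3.22 to 3.95, Clca3a1, Clca3a2 and Clca3b lie above 0 in every group, and Clca4a runs from 0.67 to -0.13 across the groups.

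Clca3a1, Clca3a2, Clca3b, Clca4b, Clca4a, Clca1 and Clca2 follow one another on chromosome 3 in this order, with no other measured gene between them. Of the 10 measured genes on each side, 1 rose with DSS and 2 fell, a share near that of all genes (13.1%). Ddah1, which degrades an inhibitor of nitric oxide synthases, rose by 0.99 ± 0.07 (adjusted p = 1.11e-06). The kynurenine aminotransferase Kyat3 (-0.32 ± 0.06, adjusted p = 0.00544) and the transcription regulator Lmo4 (-0.33 ± 0.06, adjusted p = 0.00308) fell. The median of the 20 neighbours was 0.06.

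The 5 genes with the profile nearest to Clca4b over the 16 arrays, after each gene was centred on its own mean, were Srgn, Acod1, Ccl3, Cxcl2 and Il1f9. Their root mean square difference from Clca4b was 0.67, 0.69, 0.70, 0.70 and 0.74 log2, against a median of 1.88 for all genes. Srgn encodes the granule proteoglycan serglycin, Acod1 the enzyme that makes itaconate, Ccl3 and Cxcl2 chemokines for leukocytes, and Il1f9 a cytokine of the interleukin-1 family. The choice by likeness fixes that they separate by treatment as Clca4b does. Within the DSS arrays the order differed: Ccl3 was highest, 2.68 above its mean, in DSS replicate 1 with both sources, where Clca4b was 1.35 above its own, and Ccl3 was 0.88 above its mean in DSS replicate 2 under milk SIgA alone, where Clca4b was at 2.11. Clca4a and Clca1 spanned 0.78 and 0.51 log2 over their group means, too little for the rule that named such genes.

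**Figure D4:**
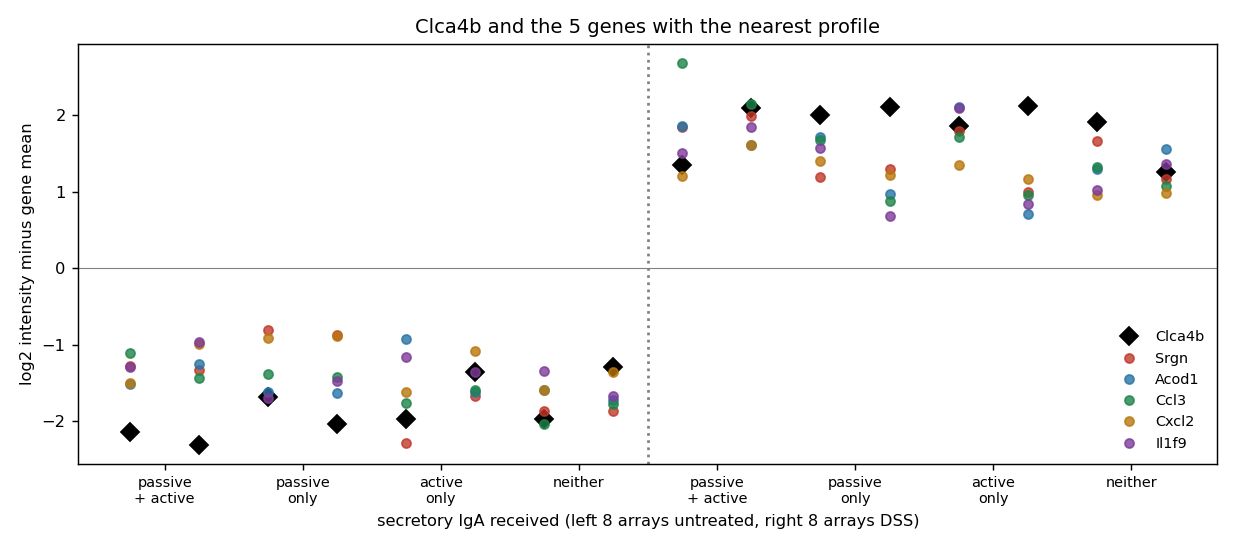
Clca4b (diamonds) and the 5 genes nearest to it, as log2 intensity minus each gene's own mean, in the 8 untreated (left) and 8 DSS arrays (right). Each gene lies below 0 in all untreated and above 0 in all DSS arrays, while their order within the DSS arrays changes from array to array.

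Markers of neutrophils and part of those of macrophages rose with DSS. Beside the counts below, 6.40% of all genes rose by limma and 6.73% fell (13.1% in all). Of 17 neutrophil markers 12 rose and none fell, among them Retnlg at 1.54 ± 0.10, Cxcr2 at 1.32 ± 0.12 and S100a8 at 1.11 ± 0.09. Mmp8, Mpo, Ngp, Camp and Elane did not pass. Ly6g (named after its value was seen) rose by 0.40 but was bright already in untreated arrays, at 11.75 to 12.40. The mean level of the 17 ran from 5.91 to 6.30 in untreated and from 6.57 to 7.09 in DSS arrays. The scale has no true 0, 14 of 17 stayed under the median gene level after DSS, and no detection calls were used. Of 13 macrophage markers 4 rose (Csf1r, Cd68, Lyz2 and Mrc1, by 0.36 to 0.70), with mean levels of 5.73 to 6.15 and 6.03 to 6.21. Of 9 mast cell markers 2 rose and 1 fell, with the proteases Mcpt2 at 1.40 ± 0.23 and Mcpt1 at 1.30 ± 0.27 and Kit, which is not confined to mast cells, at -0.71 ± 0.10; their mean levels were 5.32 to 5.70 and 5.51 to 5.99. Of 11 fibroblast markers 3 rose (Fbln1, Vim and Dcn, by 0.58, 0.81 and 0.78), none of 10 T cell, 9 endothelial or 8 smooth muscle markers passed, and of 9 B cell markers Sdc1 and Igha fell, Igha not without the untreated group that stood apart (adjusted p = 0.593). The part of these cells in the Clca4b difference was not tested.

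Human CLCA4 is known from colonocytes of the epithelial surface, and part of the genes of that surface fell with DSS. Of 16 surface colonocyte markers 8 fell and none rose, with a median of -0.19. Beside the counts in this paragraph, 6.73% of all genes fell by limma and 6.40% rose. The sugar phosphate transporter Slc37a2 fell by 1.72 on the log2 scale, the water channel Aqp8 by 0.96, the phosphate transporter Slc20a1 by 0.53 and the guanylin gene Guca2a by 0.33 (limma adjusted p = 1.49e-08, 3.59e-05, 0.000226 and 0.0012). Without the untreated group that stood apart 7 fell, Cdhr5 (named after its value was seen) not among them. Of 16 genes of the wound epithelium list 3 rose (Itga2, Sprr2h and Anxa1, by 0.59, 0.87 and 0.53) and none fell, with a median of 0.11. Of the 14 epithelial markers Cldn3 and Krt18 fell by 0.21 and 0.20 on the log2 scale and none rose, a share near the 13.1% of all genes that passed, and with single arrays left out the count ran from 0 to 2. Anxa1, Cldn3 and Krt18 did not pass without the untreated group that stood apart (adjusted p = 0.0602, 0.109 and 0.256).

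Ano1, the channel that CLCA1 is known to stabilise, fell with DSS. It ran from 10.30 to 10.54 in untreated and from 8.88 to 9.45 in DSS arrays, which do not overlap, a fall by 1.2 on the log2 scale (adjusted p = 1.11e-07), where 1.30% of all genes separated downwards. Of 15 calcium-activated and related anion channels 3 fell and 1 rose, with a median of -0.07: beside Ano1, the bestrophin Best2 at -1.23 ± 0.09, Ano10 at -0.46 ± 0.05 and Ttyh1 at 0.35 ± 0.07 (not passing without the untreated group that stood apart). Of 22 genes of chloride secretion and its control 8 fell and none rose, with a median of -0.12. Beside both lists, 6.73% of all genes fell by limma and 6.40% rose (13.1% in all). Without the untreated group that stood apart 3 of the 22 fell, where 1210 of 19938 genes passed in either direction. When each array was left out in turn between 4 and 8 fell; the count was 4 without untreated or DSS replicate 2 with both sources or untreated replicate 1 under milk SIgA alone, and 5 without either DSS array or untreated replicate 2 without SIgA or either DSS array under milk SIgA alone. Among the 8 were the calcium channel Trpv6 (-1.07 ± 0.08), Guca2a, the chloride-bicarbonate exchanger Slc26a3 (-0.47 ± 0.08) and the potassium channel Kcnq1 (-0.30 ± 0.07, not passing without that group, adjusted p = 0.0795). Cftr stood at -0.10 ± 0.07 and the cotransporter Slc12a2 at -0.10 ± 0.06, and neither passed; both were picked for mention after their values were seen.

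Mucus genes, the setting of Clca1, rose in part and fell in part. Of 15 measured, 3 rose and 2 fell, with a median of 0.06, where 13.1% of all genes passed. With single arrays left out 3 to 4 rose and 1 to 3 fell. The goblet cell product Retnlb ran from 8.41 to 10.62 in untreated and from 11.17 to 11.91 in DSS arrays and rose by 2.16 ± 0.12. The membrane mucin Muc1 rose by 0.56 ± 0.06 and the trefoil peptide Tff3 by 0.38 ± 0.07, while the mucus crosslinking enzyme Tgm3 fell by 0.95 on the log2 scale and the membrane mucin Muc4 by 0.22 (named after its value was seen, and not passing without the untreated group that stood apart, adjusted p = 0.0761). Muc2, the main gel-forming mucin, stood at 0.06 ± 0.05 (adjusted p = 0.56) and was also picked for mention after its value was seen. Of 18 goblet markers 2 rose (Tff3 and the glycosyltransferase Galnt12, the latter by 0.29 ± 0.06 and named after its value was seen) and 3 fell (Ern2, Scin and the secretory lineage factor Atoh1, at -0.42, -0.48 and -0.39), with a median of 0.04. Their mean level was 10.27 to 10.61 in untreated and 10.24 to 10.49 in DSS arrays.

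Interleukins 4 and 13 are known inducers of Clca1 in mucosal epithelia. Of 19 genes of that axis 2 rose and 1 fell, with a median of -0.01, a share near the 13.1% of all genes. With single arrays left out 2 to 3 rose and 0 to 3 fell. They were Retnlb, the receptor chain Il4ra at 0.88 ± 0.06 (adjusted p = 1.36e-06) and Cish at -0.26 ± 0.08 (adjusted p = 0.0397, not passing without the untreated group that stood apart). The cytokine genes Il4 and Il13, picked for mention after their values were seen, lay at 5.42 to 5.88 and 6.05 to 7.19 over all arrays, under or near the median gene level, and stood at -0.01 ± 0.06 and -0.06 ± 0.14.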

How the data were processed

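Colonic epithelial RNA was measured on Affymetrix GeneChip arrays. The values deposited by the authors are log2 intensities made with RMA per the submitters' processing notes, of no stated version; they ran from 1.857 to 14.938, with array medians of 6.678 to 6.825. RMA equalises the distributions of the arrays, which can hide a shift shared by most genes. Of 35557 probe sets, 21789 named 1 gene, 1621 several and 12147 none. Of the first kind 21698 were matched by gene ID to RefSeq (GRCm38.p6), which changed no symbol. Only that kind was used, with the brightest probe set for each of 19938 genes. Group means were fitted with limma 3.58.1 (R 4.3.3) over all 16 arrays, with moderated tests, two-sided, Benjamini-Hochberg adjustment over all genes and a threshold of 0.05; SIgA effects are without minus with. Tests of the members' interactions with DSS had been planned but are not reported, because the choice of members used those differences. The script was tested on simulated data. Per the labels RNA had an integrity number of at least 8.5 and replicates were separate pools, so p-values measure the spread between pools. Members, gene lists and alternatives were chosen with earlier results of these data known. From each list up to 4 genes past the threshold with the smallest p were named (others are marked as named after their values were seen, or complete a count of 5 or fewer), and for a member whose group means span more than 1 log2 the 5 genes with the nearest profile. The alternatives were a trend in the prior variance, array weights, a replicate block, median centring, dropping the 30% of genes with the lowest mean, keeping all single-gene probe sets, and leaving out 1 untreated group or each array.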

Additional observations from a re-analysis of the deposited data

Results flagged for a closer look

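The DSS difference of Clca4a pointed in different directions between SIgA groups, though the downward one was within its error. Both DSS arrays lay above both untreated arrays with both sources (0.67 ± 0.16, SE) and under milk SIgA alone (0.63 ± 0.16), and both lay below them without SIgA (-0.13 ± 0.16, 95% interval -0.47 to 0.22), where the nearest arrays stood at 10.915 and 10.922. Within a group of 2 against 2, 28.4%, 24.3% and 21.5% of all genes separated in these directions. The difference between SIgA groups was not tested, since the choice of the genes used these values.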

How the results depend on the processing

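The 7 alternatives beside leaving out arrays left the DSS differences of the 7 Clca genes with their sign, and the calls of the 4 relatives stood (Clca2 lies among the dimmest 30% of genes and has no value there). The 18 tested SIgA effects on the 3 genes kept sign and side of the threshold in all but the cases given next. The interactions with DSS, which were not tested, kept their sign. Untreated Clca4a passed for passive SIgA with a trend in the prior variance (0.45, adjusted p = 0.0291) and with the replicate block (0.45, adjusted p = 0.0434); over the 7 alternatives its adjusted p ran from 0.0291 to 0.616. Without the untreated mice that had both sources the averaged effects of passive SIgA on Clca1 (0.018) and of active SIgA on Clca4b (-0.016) and Clca4a (-0.029) changed sign, all near 0. The replicate block changed no other call on the 3 genes. Replicate numbers did not pair the arrays: over 28 pairs of groups the correlation of same-numbered arrays' deviations ran from -0.301 to 0.666, with 14 over 0.1.

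The counts of all genes past the threshold, which give the background shares, moved far more. For passive SIgA averaged 192 became 384 with a trend, 127 with array weights, 330 with centred arrays and 3 without that group. For untreated passive SIgA 514 became 803, 283, 949 and 0 in the same order and 202 without the dimmest genes. For passive SIgA after DSS 0 became 25 with a trend, 16 with the block, 4 with centring, 15 without the dimmest genes and 2 without that group. For active SIgA averaged 274 became 415 with the block, 430 with centring, 7 without the dimmest genes and 1 without that group, and for untreated active SIgA 1494 became 2326 with the block, 19 without the dimmest genes and 0 without that group. The passive interaction went from 23 to 139 with centring, 35 with all probe sets and 0 without the dimmest genes or that group, and the active one from 168 to 105 with a trend, 308 with centring, 5 without the dimmest genes and 0 without that group. The DSS count went from 2618 to 1210 without that group. Of the genes past the threshold, 1101 of 1494 for untreated active SIgA, 242 of 274 for active SIgA averaged and 256 of 514 for untreated passive SIgA were among the dimmest 30%, where signal over background limits what an array measures; none of the 3 Clca genes was. The cause of the other shifts was not tested.

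When each array was left out in turn, Clca4b ran 0.051 to 0.24 (averaged passive), 0.23 to 0.56 (untreated passive), -0.29 to 0.083 (passive after DSS), -0.015 to 0.17 (averaged active), 0.026 to 0.36 (untreated active), -0.23 to 0.15 (active after DSS), -0.69 to -0.31 (passive by DSS), -0.42 to -0.045 (active by DSS), 3.59 to 3.77 (DSS). Clca4a ran 0.090 to 0.24 (averaged passive), 0.42 to 0.48 (untreated passive), -0.27 to 0.035 (passive after DSS), -0.059 to 0.093 (averaged active), 0.10 to 0.16 (untreated active), -0.25 to 0.052 (active after DSS), -0.72 to -0.41 (passive by DSS), -0.39 to -0.081 (active by DSS), 0.29 to 0.44 (DSS). Clca1 ran -0.061 to 0.040 (averaged passive), -0.13 to -0.016 (untreated passive), -0.047 to 0.16 (passive after DSS), 0.096 to 0.20 (averaged active), 0.17 to 0.28 (untreated active), -0.033 to 0.17 (active after DSS), 0.028 to 0.23 (passive by DSS), -0.26 to -0.056 (active by DSS), -0.32 to -0.21 (DSS). The counts of genes ran 52 to 267 (averaged passive), 157 to 714 (untreated passive), 0 to 4 (passive after DSS), 58 to 1043 (averaged active), 476 to 4718 (untreated active), 1 to 1 (active after DSS), 1 to 84 (passive by DSS), 34 to 527 (active by DSS), 1951 to 3290 (DSS). The relatives Clca3a1, Clca3a2 and Clca3b passed each time.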
